A study of Mus musculus with 30 samples.

Results

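The genes described here are 33 members of cholesterol synthesis and sterol control, chosen by name from the 17420 genes of the deposited table, in which each name had 1 row. They are 7 enzymes of the mevalonate steps (Acat2, Hmgcs1, Mvk, Pmvk, Mvd, Idi1, Fdps), 3 of the squalene and lanosterol steps (Fdft1, Sqle, Lss), 8 that turn lanosterol into cholesterol (Cyp51, Tm7sf2, Msmo1, Nsdhl, Hsd17b7, Ebp, Sc5d, Dhcr7), 5 genes of SREBP control (Srebf2, Srebf1, Scap, Insig1, Insig2), 2 of sterol transfer and esterification (Stard4, Soat1), 5 for the LXR receptors and their targets (Nr1h3, Nr1h2, Abca1, Abcg1, Mylip) and 3 of the fatty acid arm (Acaca, Fasn, Scd2). Poly(A) RNA of quadriceps muscle and whole spinal cord was sequenced from 15 male mice of 4 months, both tissues from each animal, which gave 30 libraries in 10 groups of 3. Mice lacking Gaa, the lysosomal acid alpha-glucosidase that is missing in Pompe disease, were compared with wild-type mice on a B6;129 background. The same genotypes were compared on a B6;129;DBA2/J background carrying Ltbp4D36/D36 in wild-type and knockout animals alike, called the mixed background from here on. The remaining group, on the mixed background only, held Gaa knockout mice injected in the temporal vein at postnatal day 1-2 with an AAV9 vector for a secreted human GAA under a liver-muscle promoter (LiMP), and the other 4 groups were untreated. No treated wild-type group and no empty-vector group was analysed here.

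Cells make cholesterol from acetyl-CoA through mevalonate, squalene and lanosterol. When membrane sterol is low, Scap escorts the SREBP transcription factors out of the endoplasmic reticulum and they raise the enzyme genes, while the Insig proteins hold Scap back when sterol is plentiful. Oxysterols activate the LXR receptors, which raise the efflux pumps Abca1 and Abcg1 and the fatty acid regulator Srebf1. The spinal cord makes its own cholesterol, largely for myelin, whereas skeletal muscle makes little and in muscle Srebf1 is also a gene that follows insulin and feeding.

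Promoter windows of 300 bases (250 before to 50 after the start site, RefSeq on GRCm38.p6) matched 27 of the 33 genes by symbol. Hmgcs1, Msmo1 and Lss are printed as examples of the 18 genes that were higher in treated than in wild-type cord. They do not stand for all 18, since the window of Acaca, also among the 18, held none of the letters searched below. Abca1 is printed because it is the LXR target that differed most in that comparison. Capitals mark the letters searched on both strands, which were the sterol regulatory element core TCACNCCAC and the CCAAT box (ATTGG on the other strand). In these 4 windows no match of one motif overlapped a match of the other.
Hmgcs1 promoter, chr13:119690101-119690400, plus strand: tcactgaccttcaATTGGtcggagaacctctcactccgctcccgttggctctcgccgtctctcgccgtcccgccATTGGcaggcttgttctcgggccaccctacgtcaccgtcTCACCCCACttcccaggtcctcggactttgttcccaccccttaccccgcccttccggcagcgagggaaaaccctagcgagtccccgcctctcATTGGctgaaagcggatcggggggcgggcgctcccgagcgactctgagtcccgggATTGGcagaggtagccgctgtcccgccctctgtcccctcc
Msmo1 promoter, chr8:64733529-64733828, minus strand: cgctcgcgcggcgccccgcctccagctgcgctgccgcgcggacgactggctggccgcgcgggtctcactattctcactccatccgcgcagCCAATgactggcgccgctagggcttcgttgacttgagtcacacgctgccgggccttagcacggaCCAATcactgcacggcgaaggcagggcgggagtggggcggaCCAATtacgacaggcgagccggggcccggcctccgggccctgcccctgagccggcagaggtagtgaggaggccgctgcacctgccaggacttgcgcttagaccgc
Lss promoter, chr10:76531355-76531654, plus strand: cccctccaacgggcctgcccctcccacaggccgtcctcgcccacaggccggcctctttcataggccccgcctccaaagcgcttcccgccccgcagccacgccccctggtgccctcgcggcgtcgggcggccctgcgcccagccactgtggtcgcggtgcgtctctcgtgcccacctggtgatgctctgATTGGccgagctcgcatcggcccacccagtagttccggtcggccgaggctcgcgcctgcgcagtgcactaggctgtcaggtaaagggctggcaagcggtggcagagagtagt
Abca1 promoter, chr4:53159846-53160145, minus strand: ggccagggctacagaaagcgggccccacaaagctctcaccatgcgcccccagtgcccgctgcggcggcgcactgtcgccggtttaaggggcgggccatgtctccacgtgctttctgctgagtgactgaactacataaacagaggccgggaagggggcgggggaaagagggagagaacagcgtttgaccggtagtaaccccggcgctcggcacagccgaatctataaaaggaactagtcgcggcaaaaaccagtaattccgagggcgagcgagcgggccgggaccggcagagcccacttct
The sterol element core was found in 1 of the 27 genes, Hmgcs1, 137 bases before the start, against 1.44% of all 27025 genes with a window. A CCAAT box lay in 21 of the 27 (77.8%), against 41.1% of all genes, with 4 in the Hmgcs1 window, 3 in Msmo1, 1 in Lss and 0 in Abca1. These are matches of letters and show neither binding nor its absence.

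Each library held between 16854081 and 37136087 reads in quadriceps and between 19208733 and 34207758 in cord, as recovered from the deposited values. Levels are given as signal, the deposited normalised read count, scaled per library, which is not divided by gene length, so levels are compared between groups and never between genes. Gaa itself was at 258 to 308 in wild-type and 15.4 to 16.2 in knockout quadriceps on B6;129, at 169 to 254 and 11.6 to 16.7 on the mixed background, and at 17.1 to 18.9 in treated quadriceps. In cord Gaa fell from 218 to 236 down to 15.7 to 17.7 on B6;129 and from 131 to 144 down to 10.6 to 13.4 on the mixed background. In treated cord it was at 8.09 to 10.3, so every library matched its genotype label. The vector carries human GAA, and whether its reads reach the mouse row was not tested. The summed signal of 7 muscle fibre markers was at least 123640 in every quadriceps library and at most 1394 in cord, and that of 6 neuron markers at least 2587 in cord and at most 5.10 in quadriceps, as the tissue labels say. Differences below are limma estimates of log2(signal + 0.5) with their standard error (SE), folds are on the same scale, and a gene is called where its Benjamini-Hochberg adjusted p over all tested genes is under 0.05.

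In wild-type B6;129 mice nearly the whole synthesis route was higher in cord than in quadriceps. Of the 33 genes, 24 were higher and 5 lower in cord, against 36.4% of all tested genes called higher and 44.9% called lower (81.3% in all, with 85.4% not overlapping), with a median log2 difference of 1.04 against -0.14 over all genes (0.01 over all genes with edgeR's scaling, so differences between tissues are to be read against that shift). All 7 mevalonate genes and all 8 lanosterol-to-cholesterol genes were among the 24. Sqle, the squalene epoxidase, was at 57.5, 65.5 and 63.2 in the 3 cords and at 4.43, 4.06 and 2.90 in the quadriceps of the same animals (log2 difference 3.88, SE 0.18, adjusted p = 2.47e-16, limma). Msmo1, which removes methyl groups from the sterol ring, differed by 3.25 (SE 0.11, adjusted p = 4.58e-19, limma), and Cyp51, the lanosterol demethylase, by 2.80 (SE 0.13, adjusted p = 6.62e-16, limma). The squalene and lanosterol steps were not alike, because Fdft1, which makes squalene, was lower in cord by 0.38 (SE 0.08). That call was lost, and its sign turned to 0.14, under quantile normalization.

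Control genes split between the tissues in the same comparison. Srebf2, the SREBP chiefly tied to cholesterol genes, was 5.39-fold higher in cord (log2 difference 2.43, SE 0.12), whereas Srebf1, tied chiefly to fatty acid genes, was at 67.3, 60.5 and 59.5 in cord against 193, 182 and 99.2 in quadriceps and was 2.42-fold lower (log2 difference -1.28, SE 0.25). Insig2 was 2.31-fold lower and Insig1 2.12-fold higher in cord. Abcg1, a sterol efflux transporter, was 16.5-fold higher in cord and Soat1, which esterifies cholesterol, 6.74-fold higher. Nr1h3, the LXR of liver, fat and macrophages, was 5.34-fold lower in cord, and Mylip, a ubiquitin ligase for the lipoprotein receptor that takes up cholesterol, 3.18-fold lower. In the fatty acid arm Scd2, a desaturase, was at 1941, 1975 and 1869 in cord and at 219, 281 and 97.1 in quadriceps, while Acaca and Fasn were not called.

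**Figure D1:**
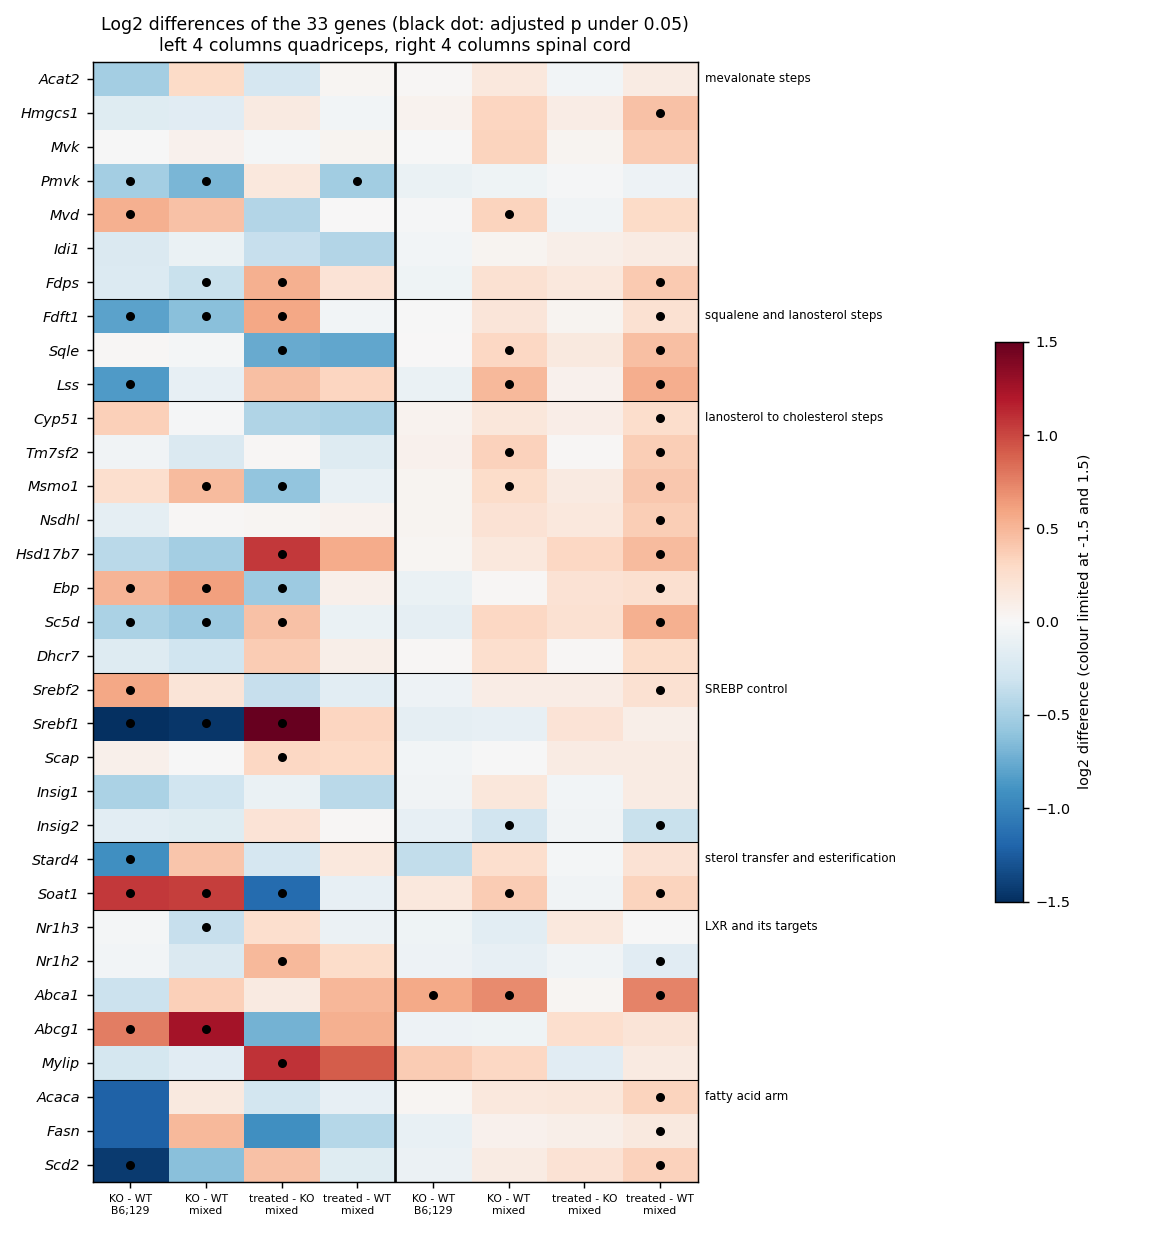
Log2 differences of the 33 genes (rows, grouped by role) in 8 comparisons (columns), with quadriceps in the left 4 and cord in the right 4. Red is higher and blue lower in the first-named group, and a black dot marks an adjusted p under 0.05; quadriceps columns mix red and blue, while the column for treated minus wild-type cord holds 18 red and 2 blue called genes.

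In knockout quadriceps on B6;129, 13 of the 18 synthesis enzymes had a negative difference, of which 4 were called lower, and 2 enzymes were called higher. The summed signal of the 18 was 306 to 321 in knockout and 367 to 425 in wild type, with no overlap. Their median log2 difference from the mixed-background wild-type mean did overlap, at 0.02, 0.12 and 0.004 in knockout and 0.23, 0.39 and 0.11 in wild type. Of the 33 genes 5 rose and 7 fell, a called share to be read against 35.8% of all 14113 tested genes (16.7% higher, 19% lower), and the median log2 difference was -0.19 against -0.02 over all genes. In 16 genes the groups did not overlap, against 53.9% of all genes. The largest fall was in Srebf1. Its signal was 193, 182 and 99.2 in wild type and 49.5, 52.1 and 48.6 in knockout, a 3.01-fold fall (log2 difference -1.59, SE 0.32, adjusted p = 0.00184, limma). The 3 knockout libraries sat close together below every wild-type library, and wild-type replicate 6 lay between them and the other wild types. Beside these changes 5 of 5 endothelial markers and 3 of 7 muscle fibre markers fell, against 19% of all tested genes. On the mixed background 4 of 5 and 4 of 7 fell, against 22.3%. The part of these markers was not tested.

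Among the B6;129 enzymes, Fdft1, the squalene synthase at the branch point to sterols, went from 93.9, 108 and 105 to 63.3, 54.5 and 57.7 (log2 difference -0.80, SE 0.09, adjusted p = 3.07e-05, limma). Pmvk, which phosphorylates phosphomevalonate, went from 16.3, 16.9 and 12.4 to 9.97, 12.0 and 9.36 (log2 difference -0.51, SE 0.12, adjusted p = 0.00543). Sc5d, a late sterol desaturase, went from 44.5, 47.7 and 43.6 to 32.9, 33.1 and 31.5 (log2 difference -0.47, SE 0.12). None of these groups overlapped. Lss, which closes the sterol ring, fell by 0.85 (SE 0.24) and Stard4, a carrier of cholesterol between membranes, by 0.92 (SE 0.23). Others rose: Ebp, a sterol isomerase, went from 7.38, 7.17 and 6.53 to 10.7, 9.47 and 10.5 (log2 difference 0.51, SE 0.13, adjusted p = 0.00794, limma). Mvd, the decarboxylase of the mevalonate steps, rose by 0.53 (SE 0.18) and Srebf2 by 0.58 (SE 0.16). Scd2 fell by 1.43 (SE 0.53) and Abcg1 rose by 0.77 (SE 0.28), but Abcg1 lost its call without any 1 of the 6 libraries, and Scd2 without any except wild-type replicate 6. Lss lost its call without wild-type replicate 4 or 5, and Mvd without wild-type replicate 4 or 6 or knockout replicate 2 or 3.

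On the mixed background the knockout gave 4 genes higher and 6 lower in quadriceps, against 39.4% of all tested genes (17.1% higher, 22.3% lower), with a median of -0.09 against -0.04 over all genes, and 13 genes did not overlap, against 46.4%. Of the 18 synthesis enzymes 12 were negative, with 4 called lower and 2 higher, and their summed signal was 282 to 298 in knockout and 329.7 to 379.7 in wild type. The fall of the sum was again largest in the squalene and lanosterol steps, with means of 117 in wild type and 77.9 in knockout. The means were 147 and 133 in the mevalonate steps and 91.4 and 80.5 in the lanosterol-to-cholesterol steps. The median log2 difference of the 18 from the wild-type mean overlapped, at -0.10, -0.12 and -0.10 in knockout and -0.03, 0.16 and -0.19 in wild type. Srebf1 was at 164, 172 and 65.9 in wild type and at 47.4, 42.0 and 43.5 in knockout (log2 difference -1.46, SE 0.32, adjusted p = 0.00295, limma), again with no overlap and with 1 wild-type library, replicate 4, near the knockouts. Fdft1 fell from 122, 102 and 103 to 66.4, 72.6 and 72.2 (log2 difference -0.62, SE 0.09, adjusted p = 0.000196). Pmvk fell from 15.6, 15.2 and 14.3 to 9.43, 9.64 and 8.48 (log2 difference -0.68, SE 0.12, adjusted p = 0.000733). Sc5d was lower by 0.54 (SE 0.12). By role, 2 mevalonate genes and 1 gene of the squalene and lanosterol steps were called lower. Of the lanosterol-to-cholesterol genes 1 was called lower and 2 higher. Ebp rose by 0.62 (SE 0.13) to 11.0, 11.2 and 10.8. Fdps, which makes farnesyl diphosphate, fell by 0.33 (SE 0.10), Nr1h3 by 0.34 (SE 0.11), and Msmo1 rose by 0.48 (SE 0.14). Fdps lost its call without wild-type replicate 3 or knockout replicate 6 or 7, Nr1h3 without wild-type replicate 1 or knockout replicate 6, and Msmo1 without wild-type replicate 1 or 4 or knockout replicate 8. The test of whether the knockout effect differed between the backgrounds called 0 of the 33 genes in quadriceps with limma and 0 with edgeR (0.283% of all genes with limma), with 2 at an unadjusted p under 0.05.

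Soat1 rose in knockout quadriceps on both backgrounds, and Abcg1 did on the mixed background. Soat1 was at 3.71, 3.60 and 4.76 in B6;129 wild type and at 10.0, 6.77 and 10.2 in knockout (2.08-fold, log2 difference 1.06, SE 0.18, adjusted p = 0.000548, limma), and at 4.19, 4.13 and 4.63 against 11.9, 8.80 and 7.82 on the mixed background (2.05-fold, SE 0.18 on the log2 scale, adjusted p = 0.00058). Abcg1 on the mixed background went from 1.46, 2.43 and 1.03 to 4.11, 5.93 and 3.50 (2.38-fold, log2 difference 1.25, SE 0.28, adjusted p = 0.00306). Neither gene's groups overlapped. Macrophage markers moved with them: 10 of 10 rose on B6;129 and 9 of 10 on the mixed background, against 16.7% and 17.1% of all tested genes called higher. Their summed signal was 29.0 to 40.2 in wild type and 267 to 358 in knockout on B6;129, and 52.8 to 72.3 and 197 to 297 on the mixed background. Of the 10, Cx3cr1 had 0 reads in at least 1 mixed-background wild-type quadriceps. Their part in the Soat1 and Abcg1 result was not tested, and in whole tissue a change in the number of cells of a type and a change in RNA per cell cannot be told apart. Abca1, the other efflux pump, was not called in quadriceps, at -0.32 (SE 0.22) on B6;129 and 0.35 (SE 0.22) on the mixed background.

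Fasn and Acaca, the enzymes that build fatty acids from acetyl-CoA, varied widely among wild-type quadriceps. Fasn was at 476, 769 and 98.2 in B6;129 wild type, at 159, 156 and 114 in knockout, at 86.4, 427 and 74.9 in mixed-background wild type, at 136, 164 and 345 in knockout and at 222, 71.7 and 70.5 in treated knockout. The groups overlapped in every comparison and no call was made for Fasn or Acaca in quadriceps. Wild-type replicate 6 was the lowest B6;129 wild type for Srebf1, Fasn, Acaca and Scd2, and replicate 4 was the lowest mixed-background wild type for the same 4 genes, although replicate 1 was nearly as low for Fasn. The summed adipocyte marker signal was 104 in the first of these libraries against 212 and 442 in the other wild types, and 107 in the second against 134 and 174. Its part was not tested. Fasn lies on chromosome 11 at 120805846 to 120824547 (GRCm38), 1.52 Mb from Gaa at 119267887 to 119285454.

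**Figure D2:**
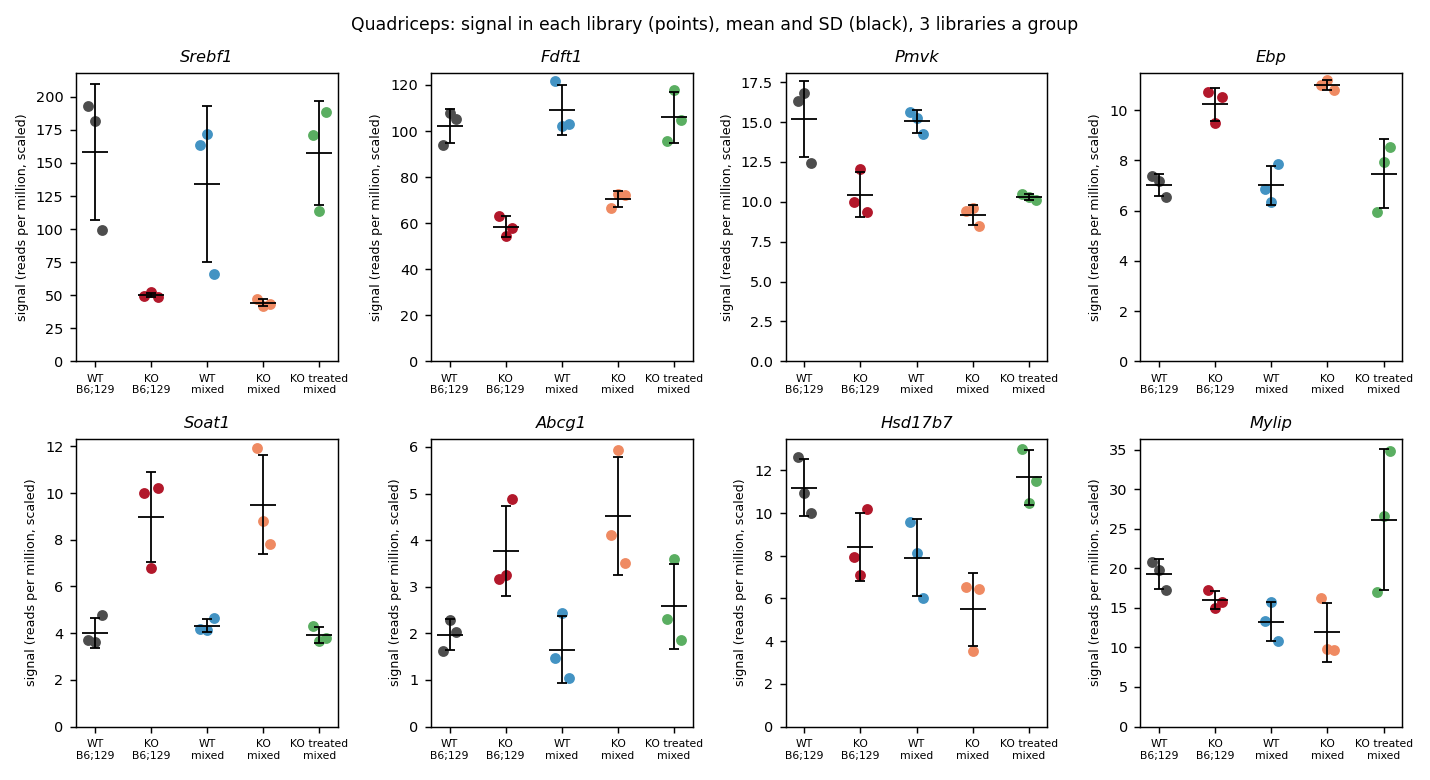
Signal of 8 genes in each quadriceps library (points), with the group mean and SD in black; the x axis gives the 5 groups, 3 libraries each, and each y axis starts at 0. Srebf1 and Fdft1 are low in both untreated knockout groups and return in treated animals, Soat1 is high in both untreated knockout groups, and Pmvk stays at 10.1 to 10.5 in treated animals.

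In quadriceps, treatment raised Srebf1 and Fdft1 and lowered Soat1. Treated against untreated knockouts, 8 of the 33 genes rose and 4 fell, against 23.6% of all tested genes called higher and 17.1% called lower (40.6% in all), with a median of 0.03 against 0.05 over all genes, and 17 genes did not overlap, against 49.4%. The summed signal of the 18 synthesis enzymes was 338 to 349 in treated quadriceps, although 8 of the 18 differences were negative. The rise of the sum was largest in the squalene and lanosterol steps, which hold Fdft1, with means of 77.9 in untreated and 114 in treated knockouts. The means were 133 and 141 in the mevalonate steps and 80.5 and 88.4 in the lanosterol-to-cholesterol steps. Srebf1 was at 171, 114 and 188 in treated animals against 47.4, 42.0 and 43.5 (3.45-fold, log2 difference 1.79, SE 0.32, adjusted p = 0.000619, limma). Fdft1 rose to 95.6, 118 and 105 (log2 difference 0.58, SE 0.09, adjusted p = 0.000269) and Sc5d to 35.9, 36.0 and 33.8 (log2 difference 0.44, SE 0.12). Fdps rose to 36.4, 29.8 and 30.8, with the highest untreated knockout at 23.6 (log2 difference 0.53, SE 0.10, adjusted p = 0.00112). Every treated library was above every untreated knockout library for these 4 genes. Ebp fell by 0.55 (SE 0.13) and Soat1 fell to 4.32, 3.67 and 3.79 (log2 difference -1.16, SE 0.18, adjusted p = 0.000194), beside a fall in 9 of 10 macrophage markers, whose summed signal was 45.8 to 88.1 in treated quadriceps. This comparison and the knockout comparison share the 3 untreated knockout libraries, so opposite signs are not independent evidence of recovery.

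Hsd17b7, Mylip, Nr1h2, Scap and Sqle were called with treatment and had not been called in the knockout comparison on this background. Hsd17b7, a reductase of the demethylation complex, went from 6.53, 3.53 and 6.44 to 13.0, 10.5 and 11.5 (2.09-fold, log2 difference 1.06, SE 0.22, adjusted p = 0.00169, limma). Mylip went from 16.3, 9.85 and 9.68 to 17.0, 26.6 and 34.8 (log2 difference 1.08, SE 0.24, adjusted p = 0.00244). Nr1h2, the LXR found in most tissues, went from 43.7, 40.9 and 42.6 to 63.5, 56.1 and 59.4 (log2 difference 0.49, SE 0.08, adjusted p = 0.000371). None of the 3 overlapped, though treated replicate 21 of Mylip was barely above the highest knockout. Scap rose by 0.31 (SE 0.09), Msmo1, which had been called higher in the knockout, fell by 0.59 (SE 0.14) and Sqle, at 1.89, 0.941 and 1.46 after treatment, fell by 0.75 (SE 0.24). Sqle lost its call without treated replicate 22 or knockout replicate 6 or 7, Scap without treated replicate 21 or knockout replicate 7, and Sc5d without knockout replicate 6. Beside these changes 5 of 5 endothelial and 5 of 7 muscle fibre markers rose, against 23.6% of all tested genes, and the part of these markers was not tested.

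Compared with wild type, treated quadriceps differed in 1 of the 33 genes, against 2.98% of all tested genes (1.93% higher and 1.05% lower, in counts 273 higher and 148 lower, or 194 and 196 after a shift to equal medians). That gene was Pmvk, at 10.5, 10.3 and 10.1 in treated and 15.6, 15.2 and 14.3 in wild-type quadriceps (log2 difference -0.52, SE 0.12, adjusted p = 0.0407, limma). Its treated level did not overlap the wild types, and it lost the call when any 1 of the 6 libraries was left out, with a difference between -0.56 and -0.50 throughout. Treated minus untreated, Pmvk differed by 0.16 (SE 0.12, adjusted p = 0.326). Of the 33 genes, 9 had an unadjusted p under 0.05, among them Mylip at 0.91 (SE 0.24, adjusted p = 0.0538), and the uncalled genes lay between -0.77 and 0.91.

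In B6;129 knockout cord Abca1 was the 1 gene called of 33 (1.16% of all 15838 genes were called, 0.998% as higher), at 22.6, 23.3 and 23.8 in wild type and 36.4, 34.1 and 33.6 in knockout (log2 difference 0.57, SE 0.12, adjusted p = 0.0405, limma). The groups did not overlap, but the call was lost without any 1 of the 6 libraries, where adjusted p was between 0.097 and 0.158. The 18 synthesis enzymes lay between -0.13 and 0.06 with no call. In the same comparison 7 of 10 microglia and macrophage markers rose, from a summed signal of 123 to 127 in wild type to 270.5 to 283 in knockout, and their part in the Abca1 result was not tested.

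On the mixed background 5 synthesis enzymes, Abca1 and Soat1 were higher in knockout than in wild-type cord. Of the 33 genes 7 rose and 1 fell, against 7.16% of all tested genes called higher and 5.85% lower (13% in all), 22 had an unadjusted p under 0.05, and in 19 the groups did not overlap, against 29.2% of all genes. The median log2 difference was 0.17 against -0.01 over all genes, and 17 of the 18 enzymes were positive. Sqle went from 48.1, 52.8 and 46.2 to 63.5, 59.5 and 58.9 (log2 difference 0.31, SE 0.06, adjusted p = 0.00685, limma). Lss went from 28.2, 28.8 and 19.2 to 37.1, 34.0 and 34.2 (log2 difference 0.48, SE 0.12, adjusted p = 0.0228). Every knockout library exceeded every wild-type library in both genes, and wild-type replicate 4 was the lowest for Lss. Tm7sf2, a sterol reductase, rose by 0.35 (SE 0.09), Mvd by 0.34 (SE 0.10) and Msmo1 by 0.27 (SE 0.08).

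Outside the enzymes, Abca1 went from 8.25, 13.3 and 11.2 to 19.8, 17.8 and 16.2 in the mixed-background knockout cord (1.63-fold, log2 difference 0.71, SE 0.12, adjusted p = 0.00317, limma). Soat1 went from 18.8, 20.5 and 16.4 to 22.9, 24.2 and 25.5 (log2 difference 0.38, SE 0.08, adjusted p = 0.00639). Insig2, a protein that retains Scap, fell from 37.7, 37.1 and 41.0 to 32.8, 28.6 and 33.6 (log2 difference -0.28, SE 0.08, adjusted p = 0.0335). In each of the 3 the groups did not overlap. Of 10 microglia and macrophage markers, 9 rose beside these genes, from a summed 119 to 126 in wild type to 259 to 284, as did 2 of 10 oligodendrocyte and myelin markers (11302 to 13125 in wild type, 12612 to 13747 in knockout) and 3 of 5 endothelial markers. The share of all tested genes called higher was 7.16%. Of 6 astrocyte markers 1 was called higher, with a summed signal of 3359 to 3666 in wild type, 5232 to 5500 in knockout and 5087 to 6107 in treated cord. The median log2 difference of the 6 in knockout was 0.05 and the largest 1.40. All 6 neuron markers had a negative difference (median -0.14), with 1 called lower, against 5.85% of all genes. The part of these cells was not tested.

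**Figure D3:**
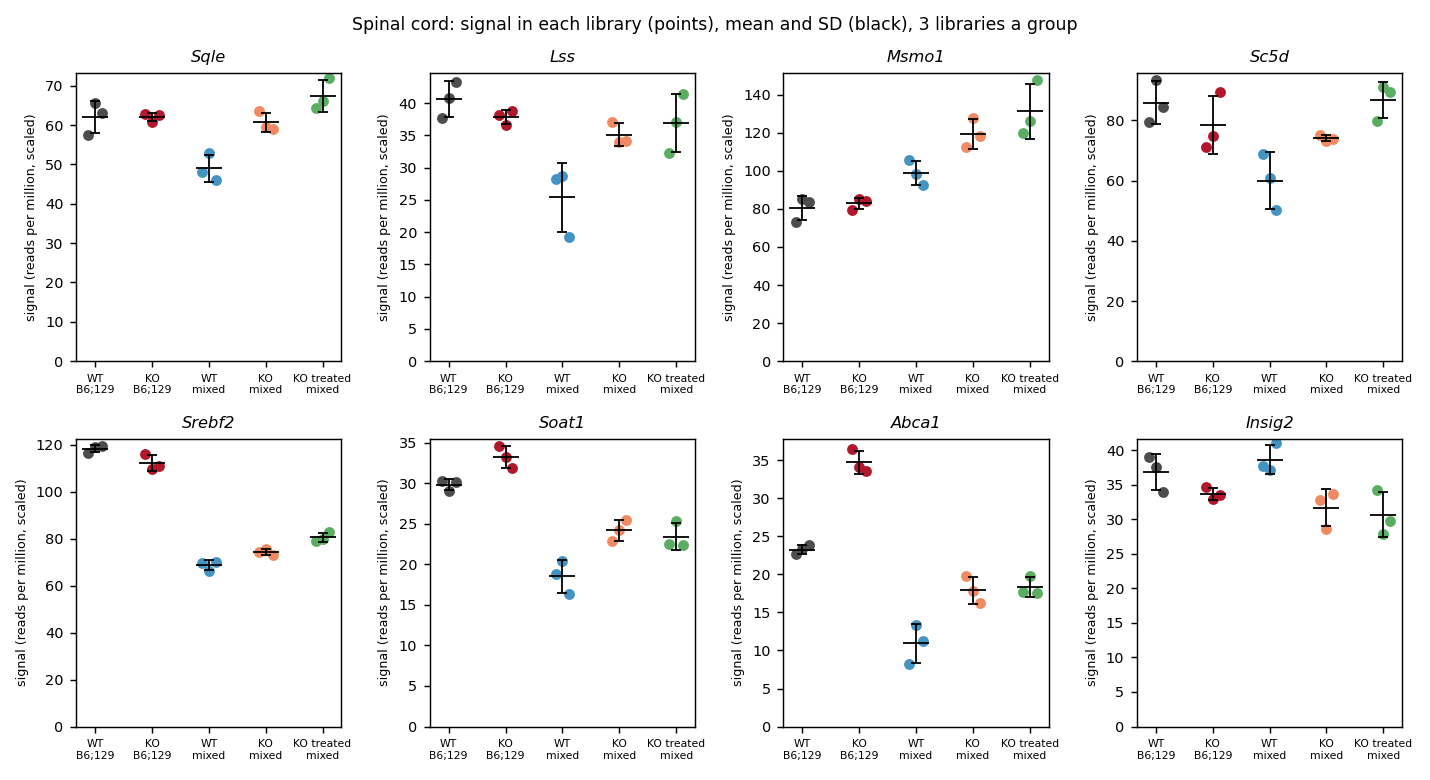
Signal of 8 genes in each spinal cord library (points), with the group mean and SD in black; the x axis gives the 5 groups, 3 libraries each, and each y axis starts at 0. Sqle, Lss, Msmo1, Sc5d and Abca1 are lowest in mixed-background wild type among the 3 mixed-background groups, and Srebf2 sits at 109.7 to 119.6 in the B6;129 groups and 66.2 to 82.7 in the mixed-background groups.

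The calls in mixed-background cord rest on the spread shared by all 5 cord groups and on 1 wild-type library. Fitted on the 6 libraries compared alone, 1 of the 33 genes was called in knockout against wild type (all genes, 570 in place of 2061), and without wild-type replicate 4 it was 3, without knockout replicate 6 or replicate 7 it was 4. Sqle, Abca1 and Soat1 kept their calls in all 6 fits that left out 1 library, and the other 5 genes lost theirs without wild-type replicate 4. In the fit on 6 libraries the adjusted p was 0.0537 for Abca1 and 0.0609 for Soat1. The difference between the backgrounds in the knockout effect was called for 0 of the 33 genes in cord with limma and 0 with edgeR (0.524% of all genes with limma), 12 had an unadjusted p under 0.05, and the 18 enzymes were all positive, with medians of 0.27, 0.30 and 0.20 in the mevalonate, squalene and lanosterol, and lanosterol-to-cholesterol steps. These enzymes were chosen as 1 route and share libraries, so the common sign carries no test.

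Most enzymes after mevalonate were higher in treated knockout cord than in wild type. Of the 33 genes 18 were higher and 2 lower, against 8.81% and 7.95% of all tested genes (16.8% in all), with a median of 0.26 against -0.00 over all genes, and 21 genes did not overlap, against 30.2% of all genes. The higher genes included 2 of 7 mevalonate genes, all 3 of the squalene and lanosterol steps and 7 of 8 of the lanosterol-to-cholesterol steps. Sqle reached 64.3, 66.0 and 71.8 (log2 difference 0.46, SE 0.06, adjusted p = 0.000548, limma). Sc5d reached 79.8, 90.9 and 89.3 against 68.9, 60.9 and 50.2 in wild type (log2 difference 0.54, SE 0.10, adjusted p = 0.00438). Msmo1 reached 120.0, 126 and 147 against 106, 98.5 and 92.7 (log2 difference 0.40, SE 0.08, adjusted p = 0.00496). All treated libraries were above all wild-type libraries in these 3 genes. Lss differed by 0.55 (SE 0.12), Hmgcs1, the synthase that feeds mevalonate, by 0.44 (SE 0.10) and Fdps by 0.39 (SE 0.09).

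In the other roles, Srebf2 was higher, from 69.7, 66.2 and 70.3 to 79.1, 79.9 and 82.7 (log2 difference 0.23, SE 0.04, adjusted p = 0.00194, limma), and Abca1 to 17.7, 19.8 and 17.5 (log2 difference 0.74, SE 0.12, adjusted p = 0.00176). Scd2, the main desaturase of cord, rose from 1407, 1334 and 1421 to 1659.9, 1762 and 1859 (log2 difference 0.34, SE 0.07, adjusted p = 0.0039), although not under quantile normalization (0.23, adjusted p = 0.202). Soat1, Acaca and Fasn were higher as well, by 0.33, 0.33 and 0.15, and Insig2 and Nr1h2 lower, by -0.33 and -0.16. Nr1h2 was not called without any 1 of the 6 libraries. Fitted on the 6 libraries compared alone, 3 of the 33 genes were called (all genes, 531 in place of 2654), and without wild-type replicate 4 it was 11, without treated replicate 24 it was 13. Under a shift to equal medians 15 genes were higher and 2 lower, while over all genes the split turned from 1395 higher and 1259 lower to 1127 and 1606.

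**Figure D4:**
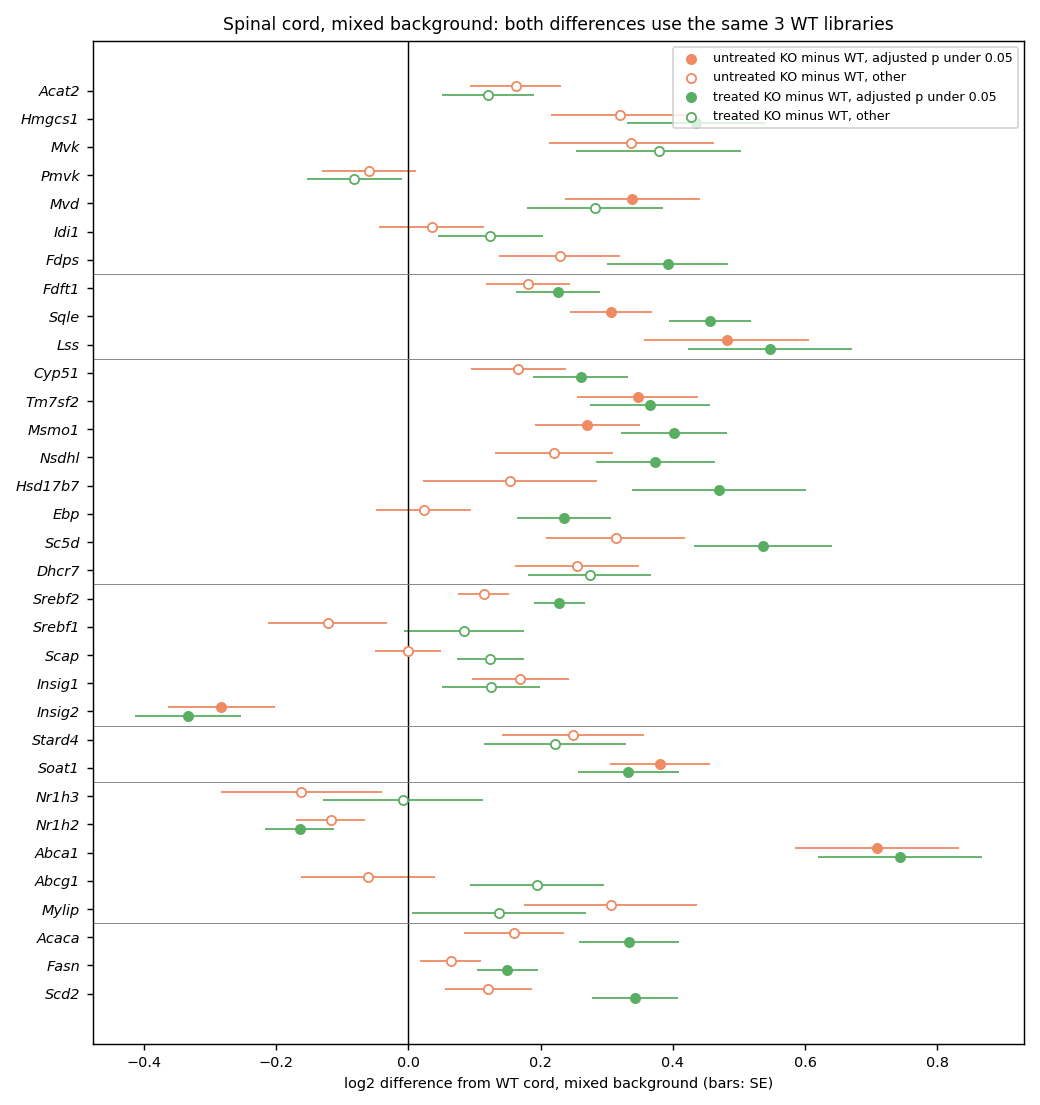
Log2 difference from mixed-background wild-type cord of each of the 33 genes in untreated (orange) and treated (green) knockouts, with bars for the SE and filled points for an adjusted p under 0.05. Most points lie right of 0 in both, Abca1 farthest at 0.71 and 0.74, and both sets use the same 3 wild-type libraries.

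Treated and untreated knockout cords did not differ in a called gene. Limma called 0 of the 33 genes and 0 of all 15838 (0%), edgeR called 0 of the 33 and 2 of all genes, and 9 of the 33 had an unadjusted p under 0.05. Differences lay between -0.17 and 0.32, with a median of 0.09, and 8 genes did not overlap, against 12.3% of all genes. Sqle differed by 0.15 (SE 0.06, adjusted p = 0.387), Hsd17b7 by 0.32 (SE 0.13, adjusted p = 0.387), Srebf2 by 0.11 (SE 0.04, adjusted p = 0.277) and Abca1 by 0.03 (SE 0.12, adjusted p = 0.96). These do not show that the 2 groups are alike.

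Myelin markers were also higher in treated cord. The median log2 difference of the 18 enzymes from the mixed-background wild-type mean was 0.11, 0.03 and -0.13 in the wild types, 0.21, 0.29 and 0.25 in untreated knockouts and 0.27, 0.29 and 0.45 in treated knockouts. That of 10 oligodendrocyte and myelin markers was 0.10, 0.00 and -0.06, then 0.21, 0.18 and 0.09, then 0.32, 0.43 and 0.54. Their summed signal was 14546 to 17285 in treated cord, and 7 of the 10 were called higher than in wild type, led by Cldn11, a tight junction protein of myelin, by 0.72 (SE 0.08, adjusted p = 0.000159, limma) and Mag, an adhesion protein of myelin, by 0.47 (SE 0.07, adjusted p = 0.000671). Microglia and macrophage markers were higher in 8 of 10 (summed 169 to 245), where Gpnmb had 0 reads in at least 1 treated library, and 2 of 5 endothelial markers were higher. The share of all tested genes called higher than in wild type was 8.81%. Neuron markers went the other way: all 6 differences were negative (median -0.19), with 0 called, against 7.95% of all genes called lower. Their summed signal was 3594 to 3764 in treated and 3878 to 4625 in wild-type cord. Whether the enzymes moved apart from any of these markers was not tested.

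**Figure D5:**
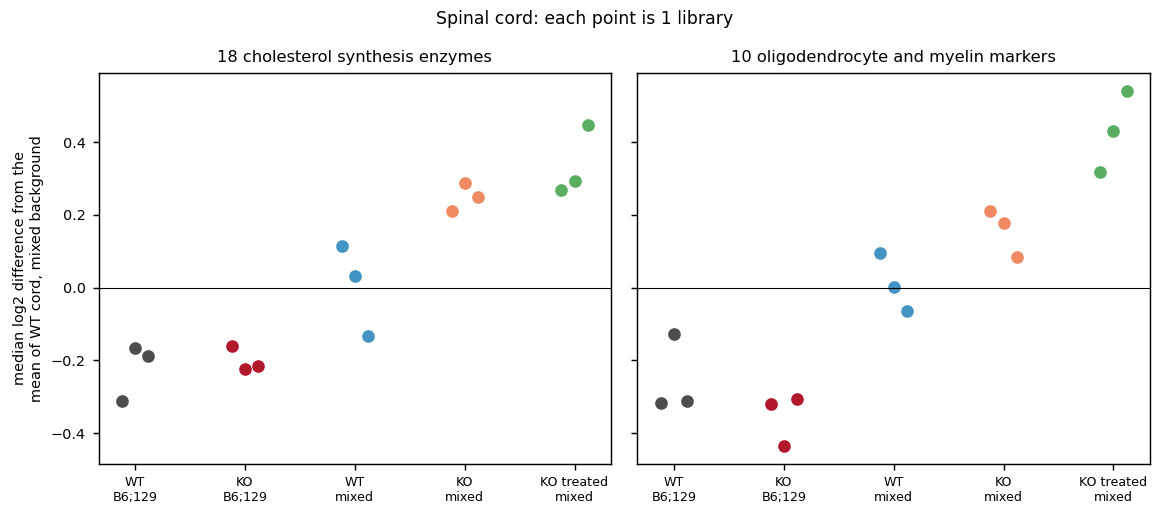
Median log2 difference from the mean of mixed-background wild-type cord for 18 cholesterol synthesis enzymes (left) and 10 oligodendrocyte and myelin markers (right), each point being 1 cord library in the 5 groups on the x axis. Both panels run from below 0 in the B6;129 libraries to the highest points in treated knockouts, 0.45 on the left and 0.54 on the right.

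Wild-type cords of the 2 backgrounds differed across the whole table, and the sterol genes were part of that. Relative to B6;129, the mixed background had 12 of the 33 genes higher and 15 lower, against 32.3% of all tested genes higher and 34.5% lower (66.8% in all), and 26 did not overlap, against 71.6%. Of the 7 mevalonate genes 6 were higher, with Pmvk at 65.2, 59.0 and 52.5 against 26.5, 25.4 and 28.1 (2.18-fold, log2 difference 1.12, SE 0.07, adjusted p = 4.75e-09, limma). Srebf2 was lower, at 69.7, 66.2 and 70.3 against 117, 119 and 119.6 (log2 difference -0.78, SE 0.04, adjusted p = 4.89e-10), as were Srebf1 (-0.62, SE 0.09), Scap (-0.51, SE 0.05), Soat1 (-0.68, SE 0.08) and Abca1 (-1.08, SE 0.12). All 3 genes of the fatty acid arm were lower, Fasn by 0.65 (SE 0.05, adjusted p = 1.5e-08). There was no overlap between the groups for any gene named here.

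The background cannot be told apart from the 2 column series, A and B, in which the libraries of the 2 backgrounds are named. Beside these differences, mitochondrial genes took 6.99% to 7.70% of reads in B6;129 cords and 13.2% to 17.1% in mixed-background cords, 5 of 5 blood cell markers were lower on the mixed background (median log2 difference -1.78) and 5 of 5 endothelial markers were lower (median -1.37). The share of all tested genes called lower was 34.5%. Quadriceps of the same animals showed 0 of the 33 genes called between the wild types with limma and 0 with edgeR (2.57% of all genes with limma, 1.39% higher and 1.18% lower), with 8 at an unadjusted p under 0.05.

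Single sterol genes responded differently in the 2 tissues, in the knockout comparisons in shares near those of all genes. The knockout effect in cord minus that in quadriceps was called for 8 genes on B6;129 (25.4% of all 13187 genes tested) and 11 on the mixed background (32.3%), and the treatment effect for 14 (33.6%). Fdft1 differed in both knockout comparisons, by 0.79 (SE 0.12, adjusted p = 2.11e-05, limma) and 0.81 (SE 0.12, adjusted p = 1.3e-05), and its treatment effect by -0.54 (SE 0.12). It was called in quadriceps each time, and in cord not on the knockout or with treatment. In mixed-background knockout cord it still lay 0.18 above wild type, and treated cord was called higher than wild type. Srebf1 differed in the same comparisons, by 1.45 (SE 0.36), 1.34 (SE 0.36) and -1.58 (SE 0.36), and was also not called in cord on the knockout or with treatment. Soat1 was higher in knockouts of both tissues on the mixed background, by 1.04 in quadriceps and 0.38 in cord, a difference of -0.66 (SE 0.19, adjusted p = 0.0121). With the animal as a block, Dhcr7 in the mixed-background knockout comparison (0.55, SE 0.21) and Fdps in the treatment comparison (-0.37, SE 0.14) lost their calls, at adjusted p = 0.0706 and 0.0603.

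Other genes of the same pathways were taken from 3 lists. Among 14 further SREBP and fatty acid synthesis genes, 2 rose and 4 fell in B6;129 knockout quadriceps, 3 rose and 3 fell on the mixed background, and 4 rose and 1 fell with treatment, where 35.8%, 39.4% and 40.6% of all tested genes were called. These counts are near those shares. Me1, the malic enzyme that supplies NADPH to lipid synthesis, fell by 1.08 (SE 0.16, adjusted p = 0.000171, limma) and 0.78 (SE 0.16, adjusted p = 0.0017) and rose by 1.20 (SE 0.16) with treatment. In cord the list had 0 called on B6;129, 2 lower on the mixed background (Fads1 and Fads2, the polyunsaturated fatty acid desaturases, by -0.20 and -0.28) and 3 higher in treated against wild type, with Erlin2, a membrane protein of the endoplasmic reticulum, up by 0.60 (SE 0.10). The shares of all genes called in these cord comparisons were 1.16%, 13% (5.85% lower) and 16.8% (8.81% higher).

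Of 16 listed genes of sterol transport and turnover, 15 were measured, and 15 were tested in cord and 13 in quadriceps. In quadriceps 3 rose and 2 fell in the B6;129 knockout, 1 rose and 4 fell on the mixed background, and 6 rose and 1 fell with treatment. Of all tested genes 35.8%, 39.4% and 40.6% were called, and the knockout counts are near those shares. Npc2, which carries cholesterol out of lysosomes, rose by 0.56 (SE 0.11, adjusted p = 0.00158, limma) and 0.69 (SE 0.11, adjusted p = 0.000325) in knockout quadriceps. In cord Npc2 was the 1 gene of the list called on B6;129, up by 0.42 (SE 0.06, adjusted p = 0.00334, limma), where 1.16% of all genes were called. It was 1 of 5 on the mixed background, up by 0.43 (SE 0.06, adjusted p = 0.000902, limma), where 13% of all genes were called. Npc2 stayed 0.37 (SE 0.06) above wild type in treated cord. Scarb2, a lysosomal membrane protein, was 0.30 (SE 0.05) above wild type in knockout and 0.50 (SE 0.05) above it in treated cord. Cyp27a1, which makes an oxysterol, fell by 0.52 (SE 0.13) in mixed-background knockout quadriceps, rose by 0.85 (SE 0.13) with treatment, and was 0.37 (SE 0.09) higher in treated than in wild-type cord.

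In the 8 genes of the isoprenoid branch, which leaves the route before squalene, 1 rose and 4 fell in B6;129 knockout quadriceps and 1 rose and 6 fell on the mixed background, against 16.7% of all genes higher and 19% lower, and 17.1% higher and 22.3% lower. Pggt1b, a subunit that attaches geranylgeranyl groups to proteins, fell by 1.08 (SE 0.17, adjusted p = 0.00036, limma) and 1.09 (SE 0.17, adjusted p = 0.00029) and rose by 1.23 (SE 0.17) with treatment. Dhdds, which makes dolichol, rose by 0.40 (SE 0.10) and 0.58 (SE 0.10). In cord 0 of the 8 were called on B6;129, and 1 was higher and 1 lower in both mixed-background comparisons with wild type. Fntb was the higher, by 0.32 (SE 0.09) in untreated and 0.66 (SE 0.09) in treated knockouts. The shares of all genes called were 1.16% on B6;129, and 13% and 16.8% in untreated and treated mixed-background knockouts.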

How the data were processed

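The deposited table gave 1 normalised signal value for each of 17420 genes in 30 libraries, which the authors made as reads plus 0.5 over a scaled library size, as the values themselves show. Single-end reads of 61 bases were, per the submitters' processing notes, processed by limma, edgeR, RSEM and cutadapt. The notes name the build GRCm38, and tool versions are not given in the sources used here. Whole reads were recovered for 100% of values within 0.001 read. The factor of each library was computed over both tissues together, from 0.624 to 0.859 for muscle libraries and from 1.20 to 1.67 for cord libraries, and 1 read was worth 0.0179 to 0.0720 signal.

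Differences were fitted with limma 3.58.1 in R 4.3.3 on log2(signal + 0.5), 1 fit of 5 groups a tissue and 1 of 30 libraries for comparisons between tissues, leaving out genes that did not reach signal 1 in 3 or more libraries of the tissue. P-values were adjusted over all kept genes by Benjamini-Hochberg. As an alternative, edgeR 4.0.16 was run on the recovered reads, and in mixed-background cord it called 1965 genes in knockout against wild type. The scripts were tested on simulated data. The libraries of a group are separate animals per the labels.

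The members and lists were chosen with earlier results of these data known. Called members are given with full statistics, at most 8 a comparison by adjusted p, 1 uncalled member a role may be named, and at most 3 called genes a further list. Both tissues came from the same 15 animals per the labels, and deviations from the group means correlated between the tissues of an animal at 0.109 to 0.354. Among the 3 animals of a group, 15 of 15 were best matched to their own number. Deviations cancel within a group, so a positive match with the own number pushes the matches with the others down. Treated cord columns were joined to animals by title number, since the descriptions of 2 of these libraries name other column numbers, which leaves the group unchanged.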

Additional observations from a re-analysis of the deposited data

Results flagged for a closer look

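The following differences between the tissues passed the test of the difference itself (limma, cord effect minus quadriceps effect on the log2 scale, all adjusted p under 0.05). With the animal as a block, Dhcr7 in the mixed-background knockout effect and Fdps in the treatment effect lost their calls (adjusted p = 0.0706 and 0.0603, limma). For the knockout effect on B6;129, the positive differences were 0.41 for Pmvk, 0.79 for Fdft1, 1.45 for Srebf1 and 0.88 for Abca1. The negative ones were -0.61 for Ebp, -0.66 for Srebf2, -0.90 for Soat1 and -0.85 for Abcg1.

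For the knockout effect on the mixed background, the difference was 0.49 for Hmgcs1, 0.63 for Pmvk, 0.56 for Fdps, 0.81 for Fdft1, 0.56 for Tm7sf2, 0.85 for Sc5d, 0.55 for Dhcr7 and 1.34 for Srebf1. It was -0.60 for Ebp, -0.66 for Soat1 and -1.31 for Abcg1. Pmvk, Fdft1, Ebp, Srebf1, Soat1 and Abcg1 were thus called on both backgrounds.

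For the treatment effect, the difference was 0.43 for Idi1, 0.90 for Sqle, 0.55 for Cyp51, 0.72 for Msmo1, 0.76 for Ebp, 0.46 for Srebf2, 1.11 for Soat1 and 0.97 for Abcg1. It was -0.37 for Fdps, -0.54 for Fdft1, -0.74 for Hsd17b7, -1.58 for Srebf1, -0.53 for Nr1h2 and -1.25 for Mylip. The knockout and treatment effects on the mixed background share the 3 untreated knockout libraries of each tissue.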

How the results depend on the processing

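For the genes with the smallest adjusted p in each comparison, at most 4 a comparison and 42 results in all, 634 alternative values were computed, of which 612 kept direction and call, 22 kept direction and lost the call, and 0 reversed. Other members lost calls more often, as given beside them, and Fdft1 in wild-type cord against quadriceps changed sign, to 0.14, under quantile normalization. Fitting only the groups compared changed the number of called members from 8 to 1 in mixed-background knockout cord, from 20 to 3 in treated against wild-type cord, from 1 to 0 in treated against wild-type quadriceps and from 8 to 13 for the B6;129 knockout effect in cord minus quadriceps; such fits have fewer samples. In treated against wild-type quadriceps the number was 0 with no filter on low values and 2 with a filter at signal 4. Leaving out 1 library gave, in quadriceps, 8 to 14 called members (knockout, B6;129), 8 to 12 (knockout, mixed), 11 to 15 (treated against knockout), 0 to 1 (treated against wild type), 0 to 2 (wild types) and 0 to 1 (background difference). In cord it gave 0 to 0 (knockout, B6;129), 3 to 10 (knockout, mixed), 0 to 0 (treated against knockout), 11 to 19 (treated against wild type), 25 to 27 (wild types) and 0 to 0 (background difference). Between tissues it gave 29 to 30 (wild types), 6 to 12 and 8 to 14 (knockout, B6;129 and mixed) and 10 to 15 (treatment). With the animal as a replicate block the same 4 comparisons gave 30, 11, 12 and 13 called members in place of 29, 8, 11 and 14. Groups of 3 limit the precision, and genes near 1 read in a library carry more counting error.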
